A study of Homo sapiens with 12 samples.

Results

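The comparison set 4 RNA-seq libraries labelled A375 against 4 labelled SKMEL-5, both established human melanoma lines described as metastatic. They are 8 of the 12 libraries of the series, picked by their labels alone and matched by oxygen condition and replicate number into 4 pairs. The lines differ by name only in the labels: no genotype, transgene, drug or passage is given for either. Each line was grown at 1% oxygen (hypoxia) and in atmospheric oxygen (normoxia), with 2 libraries per line and condition that the design text calls biological duplicates. A375 is widely used as a BRAF-mutant line with low pigment gene expression, and SK-MEL-5 is commonly described as a BRAF-mutant line that keeps melanocytic expression. The other 4 libraries, labelled A2058, appear here for scale.

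Melanoma lines are often placed along an axis that runs from a pigmented, melanocyte-like state to a dedifferentiated, invasive one. MITF, a basic helix-loop-helix transcription factor, sits at the centre of that axis: it drives the enzymes and structural proteins of the pigment granule and, in melanocytes, is itself transcribed from a dedicated start under the control of SOX10, PAX3 and cAMP signalling. Cell lines also carry marks of their donor and their history in culture, such as inherited gene deletions, HLA type, copy number along chromosomes, and cancer-testis genes on the X chromosome that escape silencing in tumours. The comparison thus asks which genes set the 2 lines apart, in both oxygen conditions and in each.

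The libraries held 40437506 to 54202819 counts. A count of 0 allows at most 0.0553 to 0.0742 CPM (counts scaled to a common library size) in a single library, which, like each counting interval below, covers counting error only. The hypoxic replicate 1 libraries stood apart from the rest in both lines: A375 hypoxia 1 was at least 2-fold apart from A375 hypoxia 2 in 41.9% of the 19636 tested genes, and SKMEL-5 hypoxia 1 from SKMEL-5 hypoxia 2 in 31.2%. Mitochondrially encoded RNA made up 3.32% and 0.648% of counts in A375 hypoxia 1 and 2 and 3.13% and 1.35% in SKMEL-5 hypoxia 1 and 2. The normoxic shares were 4.13% and 2.97% in A375 and 6.31% and 2.79% in SKMEL-5. Calls are also given without these libraries.

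Defining genes of pigmented melanocytes were missing from the libraries of both lines. TYR, the rate-limiting enzyme of melanin synthesis, MLANA, a melanosome antigen, and KIT, the stem cell factor receptor of melanocytes, had 0 counts in all 4 A375 libraries and in all 4 SKMEL-5 libraries. PMEL, the fibril protein of the pigment granule, had 0.992, 0.772, 1.13 and 0.355 CPM in A375 (hypoxia 1 and 2, then normoxia 1 and 2, here and below), against 1.24, 0.503, 0.560 and 0.223 CPM in SKMEL-5, and averaged 1129 CPM in A2058. SOX10, the neural crest factor upstream of MITF, was high in every library, at 826 to 1265 CPM in A375 and 765 to 1166 CPM in SKMEL-5. Both sets of libraries thus had high SOX10 and lacked TYR, MLANA and KIT. Of 24 listed melanocytic genes, 4 had 0 counts in all A375 libraries and 3 in all SKMEL-5 libraries. The names A375 and SKMEL-5 below mean the libraries that carry those labels. Whether the libraries labelled SKMEL-5 come from SK-MEL-5 cells cannot be told from counts per gene, and this limit applies to each difference and likeness given here.

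**Figure D1:**
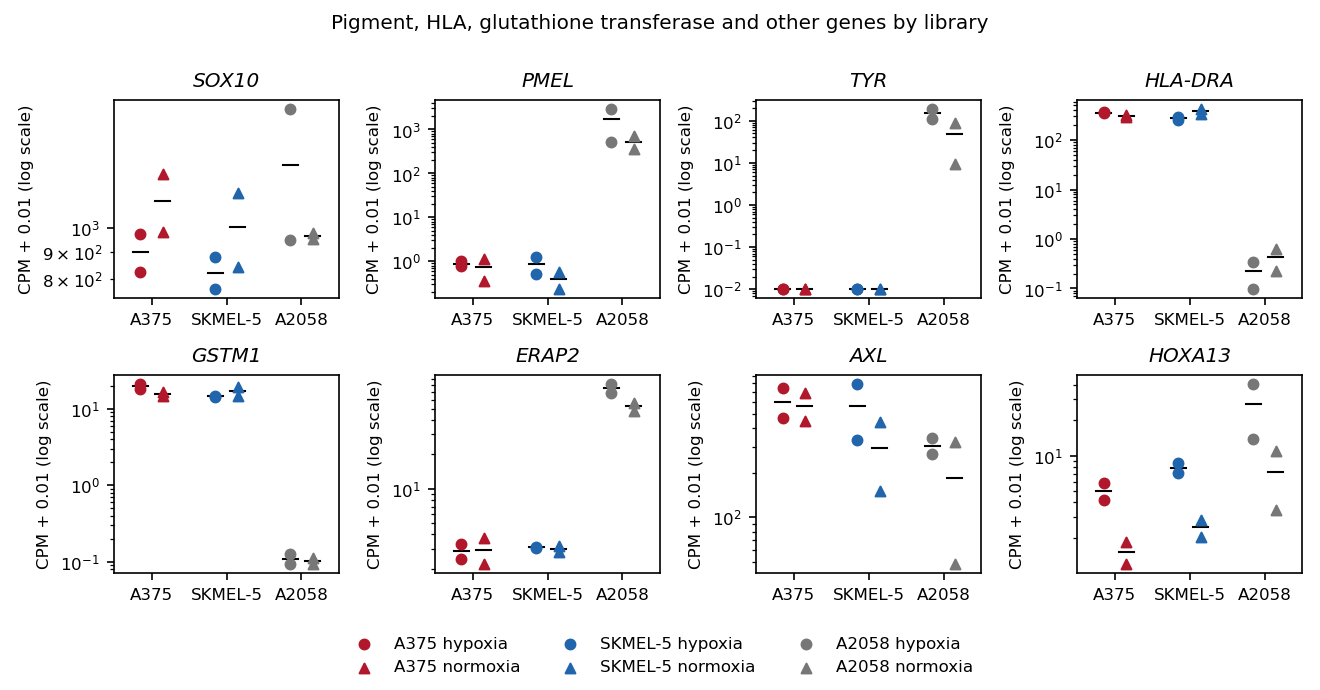
Expression by library of 8 genes, in CPM plus 0.01 on a log scale, for A375, SKMEL-5 and A2058; circles are hypoxic and triangles normoxic libraries, and bars are means of 2 libraries. TYR lies on the floor in the A375 and SKMEL-5 libraries, HLA-DRA and GSTM1 are high in both lines and near 0 in A2058, and in the panels with counts the A375 and SKMEL-5 points overlap.

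Expression differed little between the libraries of the 2 labels. Between matched libraries, Pearson's r of log2 CPM over the 19636 genes was 0.976 to 0.990 in the 4 pairs, against 0.927 to 0.982 between the duplicates of a single line and condition (6 duplicate pairs, A2058 included). Of the tested genes, 6.18% to 15.9% were at least 2-fold apart between matched libraries, while 12.7% to 41.9% were between duplicates. The medians were 11.7% for matched libraries and 25.3% for duplicates. Of the 8 libraries, 7 were nearest to the matched library of the other line, also by Spearman's rank correlation and with genes of at least 10 CPM alone, and A375 normoxia 1 was nearest to A375 normoxia 2 (r = 0.982). These correlations are across genes of single libraries, which are not independent replicates, and no p is attached to them.

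The distance to A2058 gives the scale. Of the 19636 genes used here and above, 18393 also passed the filter on low counts in the 8 libraries of the 2 lines. The rest passed only with A2058 included, and such genes weigh toward a larger distance from A2058 than between the 2 lines. Averaged over the 4 libraries of each line, 506 genes (2.58%) were at least 2-fold apart between A375 and SKMEL-5, whereas 6821 (34.7%) were between A375 and A2058. Median differences by chromosome, a coarse readout of copy number, lay between -0.06 (chromosome 18) and 0.04 (chromosome 16) on the log2 scale for A375 minus SKMEL-5. For A375 minus A2058 they lay between -0.71 (chromosome 13) and 0.47 (chromosome 19). Expression from whole chromosomes therefore showed no shift between A375 and SKMEL-5 of the size seen against A2058.

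**Figure D2:**
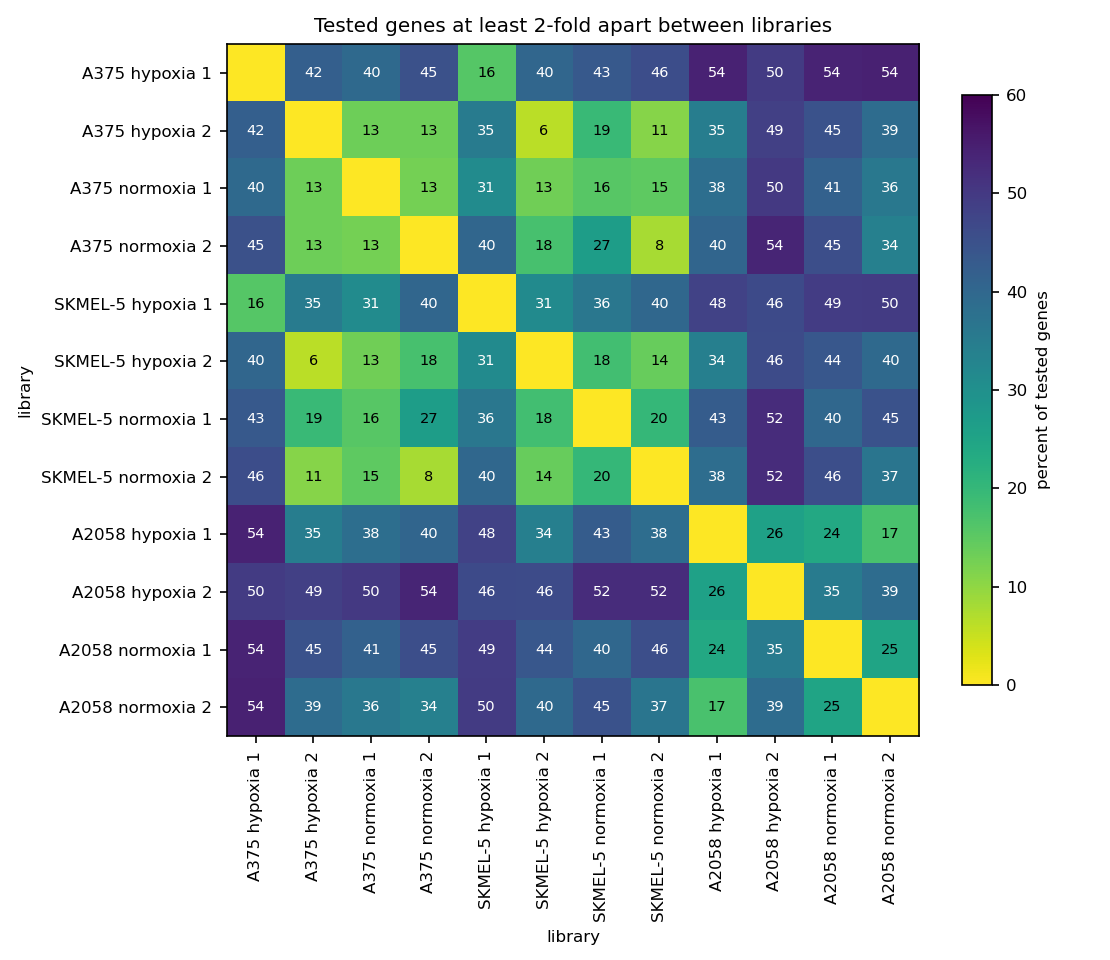
Percent of the 19636 tested genes at least 2-fold apart between each pair of libraries, as a symmetric matrix with A375 first, then SKMEL-5 and A2058 for scale. The 4 matched A375 and SKMEL-5 pairs hold 6 to 16 percent, below or near the duplicates of a line, and the pairs with A2058 hold 34 to 54 percent.

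HLA-DRA, GSTM1 and ERAP2 were at like levels in both lines and at other levels in A2058. HLA-DRA, the alpha chain of the class II molecule HLA-DR, had 368, 348, 320 and 287 CPM in A375, against 254, 292, 428 and 334 CPM in SKMEL-5, and averaged 0.315 CPM in A2058. GSTM1, a glutathione transferase gene that many people lack, had 14.7 to 21.3 CPM in the A375 libraries, against 14.3 to 19.2 CPM in the SKMEL-5 libraries, and averaged 0.0961 CPM in A2058. ERAP2, an antigen-trimming aminopeptidase with a common low-expression allele, had 3.28, 2.45, 3.68 and 2.18 CPM in A375, against 3.03, 3.11, 2.82 and 3.16 CPM in SKMEL-5, and averaged 63.8 CPM in A2058. The A375 and SKMEL-5 libraries overlapped for each of these genes, which were named with their values in view.

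Averaged over both oxygen conditions, edgeR's quasi-likelihood test without a pairing term called 2 of 19636 genes at an adjusted p under 0.05, or 0.0102%, of which 1 was higher in A375 (0.00509%) and 1 lower (0.00509%). In normoxia alone, in hypoxia alone and for the line by oxygen interaction it called 0 genes each (0%), with 387, 233 and 161 genes at an unadjusted p under 0.05. DESeq2 called 12, 11 and 0 genes in these 3 tests, and limma-voom 1, 0 and 0. The matched libraries moved together: deviations from the group means correlated at 0.80 in the hypoxic pairs and 0.58 in the normoxic pairs. A fit of the 8 libraries with the 4 pairs as a block (the paired fit) had a biological coefficient of variation of 0.226, against 0.461 for the same libraries and genes without the block and 0.453 for the unpaired fit of all 12 libraries.

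The paired fit called 50 of 18412 genes in the mean of both conditions (0.272%), of which 33 were higher in A375 (0.179%) and 17 lower (0.0923%). Its 95% intervals lay within 2-fold of no difference for 12699 genes (69.0%), so that a difference above that size was bounded out for most genes and not for the rest. The count of 50 fell to 24 without the normoxia replicate 2 pair and to 25 without the normoxia replicate 1 pair, and was 113 without the hypoxia replicate 1 pair. All 50 genes were among those 113, while 26 of the 50 were called without the hypoxia replicate 2 pair, 23 without the normoxia replicate 1 pair and 22 without the normoxia replicate 2 pair. Of the 50, 18 were called in all 4 of these fits, among them TSSC2, GAGE2A and MITF on the lower side and MAGEA11, MUC13, TENM1, VCX3B, ADARB2, VAT1L, DLGAP1, RAMP2, ITM2A, SLITRK4, ZNF385D-AS1 and SGCZ on the higher. Another 20 were called only in the fit without the hypoxia replicate 1 pair, and no gene of the 50 changed sign in any of the 4 fits. Each of these fits reuses pairs that gave the calls. The values below are from the paired fit, as log2 differences of A375 minus SKMEL-5 with standard errors, unless the unpaired fit is named. Single-gene levels are CPM after scaling by the trimmed mean of M values.

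The paired fit picked its calls on the same 4 pairs. Their agreement between pairs and lack of overlap thus follow largely from the call and are given as a description. All 33 higher genes were higher in A375 in each of the 4 pairs, which 8.87% of tested genes also were, and the 17 lower genes were lower in each pair (9.81% of tested genes). For 29 of the 33 and 10 of the 17 the 4 libraries of one line did not overlap those of the other; among all genes 0.598% had the 4 A375 libraries above and 0.788% below. Median differences were 3.41 for the higher genes and 2.08 for the lower ones, without sign. Of the 33 higher genes, 26 stayed under 1 CPM in each SKMEL-5 library, and 11 of the 33 were also under 1 CPM in each A375 library.

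MITF was the most abundant of the sharply different genes. It had 22.8, 28.3, 21.9 and 17.2 CPM in A375, against 173, 91.3, 170 and 116 CPM in SKMEL-5, with a mean of 264 CPM in A2058. The 4 A375 libraries all lay below the 4 SKMEL-5 libraries, and the lowest SKMEL-5 library was above the highest A375 library in both oxygen conditions. The difference was -2.59 ± 0.22 (SE, 4 pairs, adjusted p = 0.000298, edgeR), lower in A375 in 4 of 4 pairs, with -2.86 in normoxia (adjusted p = 0.000364) and -2.30 in hypoxia (adjusted p = 0.00148). Without the block it was -2.62 and missed the threshold (adjusted p = 0.0827), with -2.25 (adjusted p = 0.582) when the hypoxia replicate 1 libraries of both lines were also left out. In the paired fit without that pair it was -2.46 (adjusted p = 6.35e-05), and it passed without each of the other pairs.

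MITF has several starts along chromosome 3. The pair of windows printed here shows how unlike the far upstream start and the melanocyte start are, since the table of counts per gene does not tell which of them carries the difference. They are the 250 bases before the start, on the plus strand, from RefSeq on GRCh38.p14. Capitals mark CG dinucleotides in the upstream window and the letters TGACGTCA, a cAMP response element, in the melanocyte window.
MITF upstream start, chr3:69739214-69739463: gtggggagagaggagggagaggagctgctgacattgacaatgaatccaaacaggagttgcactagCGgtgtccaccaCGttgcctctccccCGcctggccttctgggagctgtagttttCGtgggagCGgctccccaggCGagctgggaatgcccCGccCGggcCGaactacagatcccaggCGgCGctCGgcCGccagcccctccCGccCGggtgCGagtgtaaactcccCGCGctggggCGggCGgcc
MITF melanocyte start, chr3:69936342-69936591: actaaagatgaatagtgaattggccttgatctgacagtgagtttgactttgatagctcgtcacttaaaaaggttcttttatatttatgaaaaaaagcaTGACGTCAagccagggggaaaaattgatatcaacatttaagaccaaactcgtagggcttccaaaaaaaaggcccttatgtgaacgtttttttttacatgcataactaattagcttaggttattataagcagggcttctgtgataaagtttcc
The upstream window holds 20 CG dinucleotides and the melanocyte window 4, against a median of 11 over 35116 RefSeq promoter windows of the same length. TGACGTCA, which reads the same on both strands, occurs once in the melanocyte window, at bases 99 to 106, and in 578 (1.65%) of all windows. A match of letters is a description of the window and not of a bound site.

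The genes around MITF were not lower as a block. FOXP1, a forkhead transcription factor that is the next but one tested gene downstream, had 0.992, 0.818, 2.75 and 1.18 CPM in A375, against 3.89, 2.89, 8.53 and 4.13 CPM in SKMEL-5. It was lower in A375 in each of the 4 pairs and by -1.80 ± 0.24 (adjusted p = 0.00749), with -1.71 in normoxia and -1.89 in hypoxia, and without the normoxia replicate 2 pair it missed the threshold (adjusted p = 0.0629). FOXP1 starts 984480 bases beyond the end of MITF. SAMMSON, a melanoma long noncoding RNA that lies between them, differed by -0.39 ± 0.31 (adjusted p = 0.691), and EIF4E3, a cap-binding protein just past FOXP1, by -1.08 ± 0.31 (adjusted p = 0.287). The further neighbours FRMD4B and RYBP stood at 0.05 ± 0.16 and 0.15 ± 0.20, and UBA3 and ARL6IP5, on the upstream side, at -0.36 ± 0.16 and -0.27 ± 0.16. The estimates for the genes that follow MITF downstream, SAMMSON, FOXP1 and EIF4E3, were all negative. Whether the differences in this region share a cause was not tested.

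**Figure D3:**
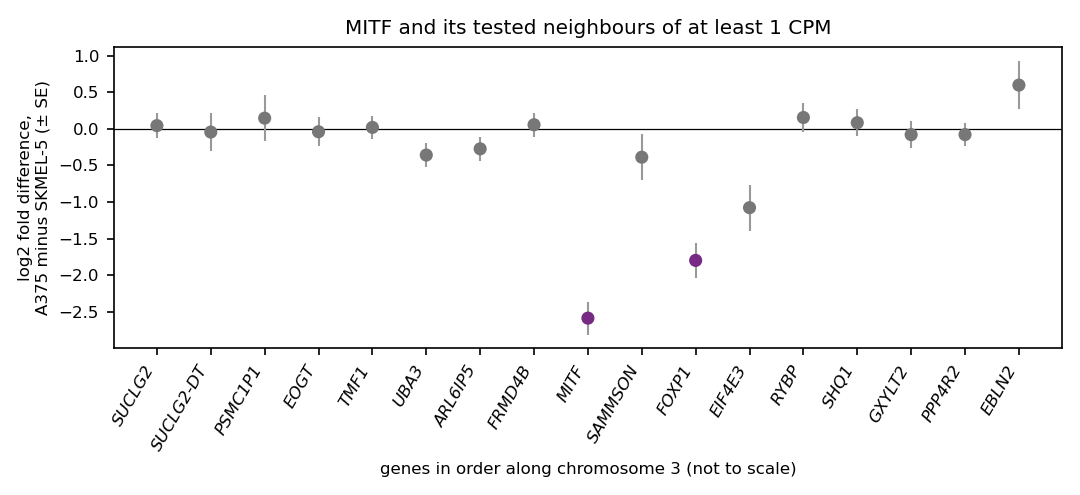
Log2 difference, A375 minus SKMEL-5, with standard error in the paired fit for MITF and the 8 tested genes of at least 1 CPM on either side, in chromosome order. Purple points passed an adjusted p of 0.05: MITF at -2.59 and FOXP1 at -1.80 stand below a row of neighbours that lie mostly within 0.5 of 0, with EIF4E3 at -1.08.

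Of the melanocytic genes, many of which MITF is known to drive, only MITF was called in the mean of both conditions; DCT in normoxia and BCL2A1 in hypoxia are given with the separate conditions below. Of 24 melanocytic genes, 17 passed the filter on low counts in the 8 libraries, 0 were higher and 1, MITF itself, was lower, and their median was 0.06 beside -0.01 for all tested genes. The unpaired fit, whose filter also took in the A2058 libraries, tested all 24 and called 0. Members that passed it through A2058 alone, such as TYR and MLANA with 0 counts in both lines, could not be called. GPNMB, a melanosome glycoprotein and MITF target, had 178, 160, 48.8 and 107 CPM in A375, against 191, 133, 44.6 and 97.8 CPM in SKMEL-5, a difference of 0.11 ± 0.15 (adjusted p = 0.849). Other members lay further from 0 without a call in the mean: SLC45A2, a melanosomal transporter, at -1.41 ± 0.62 (adjusted p = 0.487), TYRP1, a melanin enzyme, at -0.90 ± 0.67, DCT at -0.81 ± 0.89 and BCL2A1 at 1.07 ± 0.34 (adjusted p = 0.351). Of the 17 tested members, 10 had an interval within 2-fold. RAB27A, which carries pigment granules to the cell edge, differed by -0.44 ± 0.23 (adjusted p = 0.541). PAX3, the paired-box factor upstream of MITF, differed by 0.04 ± 0.17, and SOX10 by 0.15 ± 0.18 (adjusted p = 0.811), so that the upstream factors were measured at similar levels with intervals inside 2-fold.

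Genes of the dedifferentiated state were not called either. Of 28 such genes 27 were tested, 0 were called in either direction by the paired or unpaired fit, and the median was 0.20. Of the 27, 18 stood above 0, and 15 had an interval within 2-fold. AXL, a receptor kinase of that state, had 466, 741, 444 and 688 CPM in A375, against 335, 794, 150 and 441 CPM in SKMEL-5. The lines overlapped and the difference was 0.64 ± 0.24 (adjusted p = 0.446), with 1.1 in normoxia (adjusted p = 0.0674) and 0.19 in hypoxia (adjusted p = 0.889). NGFR, the low-affinity nerve growth factor receptor, had 47.2, 259, 27.2 and 139 CPM in A375, against 34.3, 205, 22.4 and 105 CPM in SKMEL-5. In both lines NGFR was higher in replicate 2 than in replicate 1 of each condition, and the spread between replicates was wider than that between lines. CCN2, a YAP target and matrix protein, had the smallest p of the list, at 0.96 ± 0.28 (adjusted p = 0.303).

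DLGAP1 and TSSC2 were the genes that passed in the unpaired fit. Both were known to differ from earlier results of these data, so their values are a description. DLGAP1, a scaffold protein of the postsynaptic density, had 3.46, 3.23, 1.94 and 1.63 CPM in A375, against 0.0238, 0, 0.246 and 0.0810 CPM in SKMEL-5. The SKMEL-5 libraries held 16 counts in all and the A375 libraries 441, a ratio per total of 29.02 (95% counting interval 17.7 to 51.2). The difference was 5.71 in the unpaired fit (adjusted p = 0.0225) and 4.91 ± 0.65 in the paired fit (adjusted p = 0.00685).

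TSSC2, a transcribed pseudogene related to the mannosyltransferase gene ALG1, went the other way. It had 0.301, 0.182, 0.422 and 0.213 CPM in A375, against 12.7, 7.31, 4.66 and 6.98 CPM in SKMEL-5, without overlap. The difference was -4.77 in the unpaired fit (adjusted p = 0.0225) and -4.71 ± 0.36 in the paired fit (adjusted p = 0.000159). In the unpaired fit, DLGAP1 lost its call when any 1 of the 8 libraries was left out, with adjusted p of 0.0528 to 0.229, and TSSC2 lost its call (0.0653 to 0.205) in all such fits but the one without SKMEL-5 hypoxia 2 (0.0308).

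None of their other tested relatives was called. Of 10 tested genes of the DLGAP, DLG and SHANK scaffold families, 1 was higher in A375 (DLGAP1) and 0 lower, with a median of -0.02. DLGAP4, the abundant member, had 340, 161, 183 and 183 CPM in A375, against 380, 177, 175 and 179 CPM in SKMEL-5, a difference of -0.05 ± 0.16 (adjusted p = 0.938), and the other 8 uncalled members lay between -0.40 and 0.40. Of 5 tested ALG1 relatives, 1 was lower (TSSC2) and 0 higher, and ALG1 itself, which adds the first mannose to the dolichol-linked sugar of N-glycosylation, differed by 0.14 ± 0.16 (adjusted p = 0.806). The other ALG1 relatives stood at 1.20 ± 0.45 (ALG1L10P), 0.70 ± 0.34 (ALG1L2) and -0.36 ± 0.51 (ALG1L9P), and 1 of the 5 intervals lay within 2-fold. TSSC2 and the ALG1 pseudogenes share sequence, and no source used here states how shared reads were assigned, so their counts are uncertain.

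**Figure D4:**
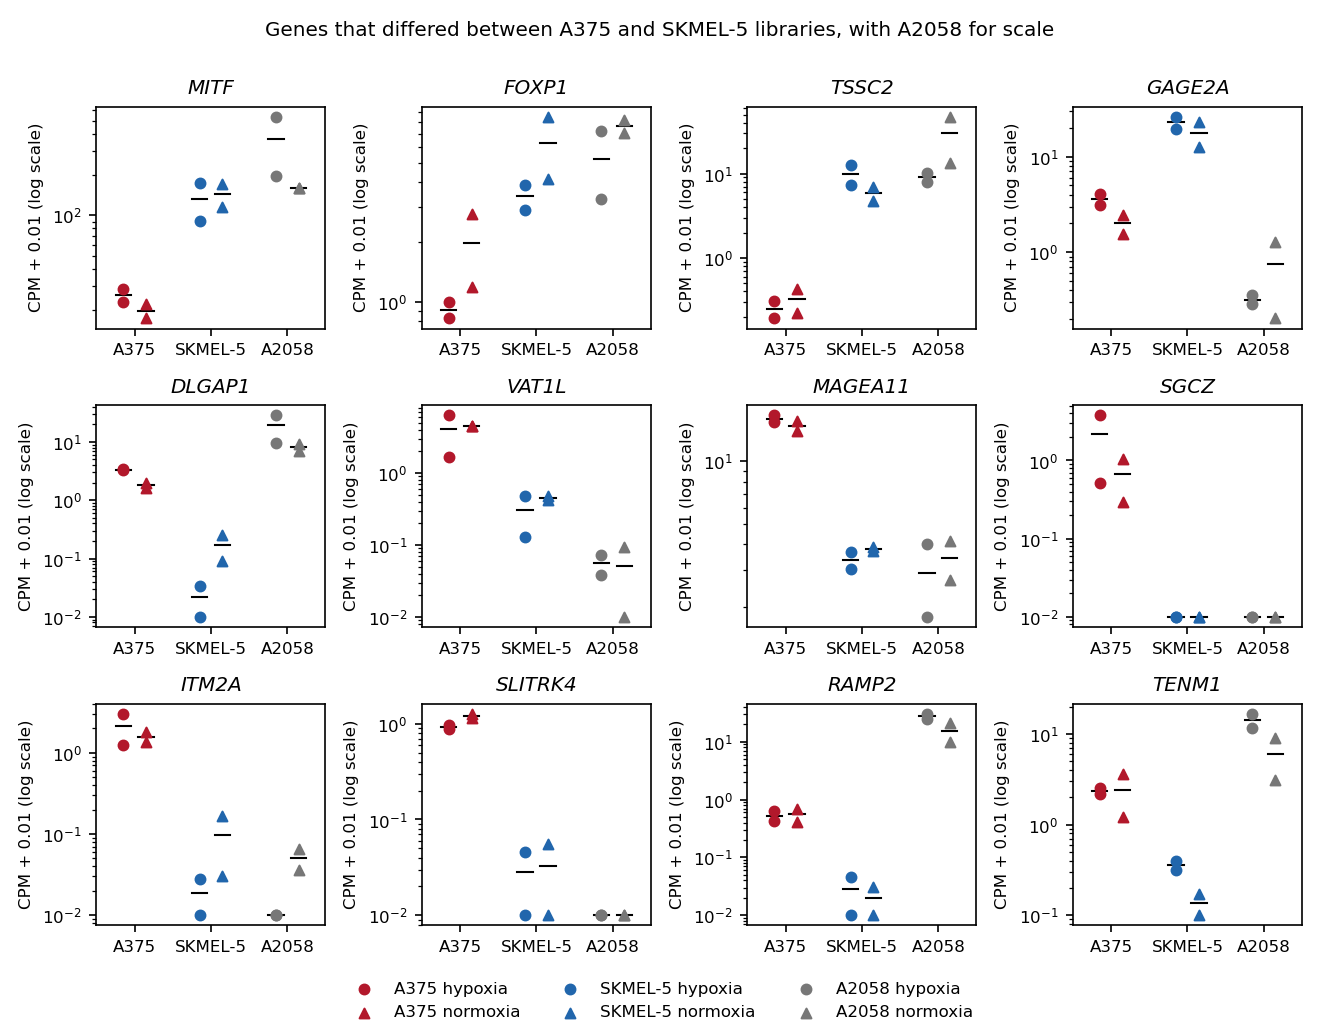
Expression by library of 12 genes that the paired fit called, in CPM plus 0.01 on a log scale, with A2058 for scale; circles are hypoxic and triangles normoxic libraries, and bars are means of 2 libraries. The A375 libraries lie below the SKMEL-5 libraries for MITF, FOXP1, TSSC2 and GAGE2A and above them for the other 8 genes, without overlap in any panel.

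Some genes were detected in A375 alone. There were 5 genes with 0 counts in all 4 SKMEL-5 libraries and at least 10 in each A375 library, and 0 genes with the reverse pattern; between A375 and A2058 there were 132 and 85 such genes. SGCZ, a muscle sarcoglycan, had 3.79, 0.4998, 1.05 and 0.284 CPM in A375 and was at least 77.9-fold higher against a floor of 3 counts over the SKMEL-5 libraries. A375 hypoxia 1 held 126 of its 222 counts, and without that library the bound was 44.2-fold. On the same floor, ZNF385D-AS1, an antisense RNA, was at least 30.2-fold higher, POF1B, an epithelial actin-binding protein, at least 21.4-fold higher, and GAGE1, a cancer-testis antigen, at least 18.6-fold higher.

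Markers of other cell types were low in both lines or not called, with exceptions among blood cell markers. The pan-leukocyte gene PTPRC had 2 counts over the A375 libraries and 10 over the SKMEL-5 libraries. Of 9 blood cell markers 4 were tested, 1 was higher and 1 was lower. The lower one was LYZ, the lysozyme gene, at a difference of -1.23 ± 0.22 (adjusted p = 0.0397), with 2.89, 6.998, 3.04 and 4.17 CPM in A375, against 6.20, 15.2, 10.2 and 8.06 CPM in SKMEL-5. The summed level of the 9 blood cell markers was 4.86 to 8.91 CPM in A375 and 6.99 to 15.5 CPM in SKMEL-5. Fibroblast markers (0 of 5 tested called) and keratinocyte markers (0 of 2) summed to 4.88 to 8.02 and 50.4 to 144 CPM in A375, against 5.11 to 10.8 and 78.6 to 103 CPM in SKMEL-5.

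Other genes were higher in A375 without being confined to it, and those that the rule for named genes did not pick were named with their values in view. SLITRK4, a synapse-organizing receptor, had 0.872, 0.954, 1.27 and 1.14 CPM in A375, against 0, 0.0359, 0.0448 and 0 CPM in SKMEL-5. Its pooled counts were 194 in A375 and 4 in SKMEL-5, and the difference was 5.52 ± 0.60 (adjusted p = 0.00200). TENM1, a teneurin of the synaptic membrane, had 2.52, 2.16, 3.60 and 1.21 CPM in A375, against 0.382, 0.305, 0.0896 and 0.162 CPM in SKMEL-5. NRCAM, a neuronal cell adhesion molecule, was the smallest call of the higher genes, at 1.00 ± 0.18 (adjusted p = 0.0432), and CNTN4, a contactin, was higher by 3.32 ± 0.57 (adjusted p = 0.0340) at under 0.5 CPM in each A375 library.

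VAT1L, ITM2A and others were higher as well. VAT1L, a quinone reductase-like protein, had 1.68, 6.36, 4.52 and 4.50 CPM in A375, against 0.119, 0.467, 0.470 and 0.405 CPM in SKMEL-5, and was higher by 3.54 ± 0.30 (adjusted p = 0.000256). Its 4 A375 libraries all lay above the SKMEL-5 libraries, and in both lines hypoxia 1 was the lowest library. ITM2A, a transmembrane protein, was higher by 5.23 ± 0.60, ADARB2, a catalytically inactive relative of the RNA editing enzymes, by 3.52 ± 0.43, and MUC13, a membrane mucin, by 2.95 ± 0.34. KLK2, a kallikrein protease, was higher by 2.28 ± 0.31 (adjusted p = 0.00869), THBS2, a matrix thrombospondin, by 2.11 ± 0.31 (adjusted p = 0.0129), and P3H2, a collagen prolyl 3-hydroxylase, by 1.40 ± 0.21 (adjusted p = 0.0150).

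RAMP2, an accessory protein of the adrenomedullin receptor, shows how few counts stand behind the low end. It had 94 counts over the A375 libraries and 3 over the SKMEL-5 libraries, a ratio per total of 33.0 with a 95% counting interval of 10.9 to 163, and averaged 21.7 CPM in A2058. LCN2, an iron-binding lipocalin, had 7.12, 3.70, 68.7 and 3.10 CPM in A375, against 1.67, 1.92, 25.9 and 0.628 CPM in SKMEL-5. The lines overlapped, since normoxia 1 was far above the other libraries in both, and the paired difference was 1.64 ± 0.24 (adjusted p = 0.0123). It was not called without the normoxia replicate 1 or the normoxia replicate 2 pair, and the unpaired difference of 1.51 turned to -0.25 without A375 normoxia 1.

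On the lower side, several genes differed within pairs rather than between all libraries. SPP1, the matrix cytokine osteopontin, had 0.240, 4.13, 1.13 and 3.24 CPM in A375, against 2.53, 9.99, 5.87 and 11.9 CPM in SKMEL-5, and was lower by -2.08 ± 0.31 (adjusted p = 0.0125). SERPINF1, the antiangiogenic factor PEDF, had 2.31, 0.227, 1.05 and 0.237 CPM in A375, against 8.68, 0.629, 5.13 and 0.769 CPM in SKMEL-5, a difference of -1.90 ± 0.29 (adjusted p = 0.0167). For both genes the libraries of the lines overlapped and replicate 1 differed from replicate 2 in the same direction in both lines, so the difference stands only within pairs. FABP7, a fatty acid carrier of glia and neural crest cells, was lower by -1.59 ± 0.28 (adjusted p = 0.0353), and AKR1C3, an aldo-keto reductase of steroid metabolism, by -1.37 ± 0.20 (adjusted p = 0.0110). For FABP7 the lines did not overlap, at no more than 2.09 CPM in A375 and no less than 3.08 CPM in SKMEL-5.

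Other lower genes had SKMEL-5 means from 0.866 CPM for RCAN2 to 7.85 CPM for ADAMTS4. DAB1, an adaptor of reelin signalling, was lower by -2.30 ± 0.41, DOK7, an activator of the muscle kinase MuSK, by -2.26 ± 0.41, and PDE6B, a photoreceptor phosphodiesterase, by -1.997 ± 0.34. RCAN2, a calcineurin inhibitor, was lower by -2.56 ± 0.43 (adjusted p = 0.0334) and DTNA, a dystrobrevin, by -1.39 ± 0.23 (adjusted p = 0.0312). ADAMTS4, an aggrecan-cleaving protease, had 0.301, 4.73, 3.80 and 2.98 CPM in A375, against 2.60, 10.7, 9.05 and 9.07 CPM in SKMEL-5, a difference of -1.64 ± 0.29 (adjusted p = 0.0410).

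The X chromosome held 10 of the 33 higher genes (30.3%) and 1 of the 17 lower (5.88%), where 3.41% of tested genes lie on it. Cancer-testis genes, which are normally active in the male germ line and are switched on in many melanomas, made up part of this. MAGEA11 had 16.7, 15.4, 14.0 and 15.6 CPM in A375, against 3.03, 3.65, 3.85 and 3.70 CPM in SKMEL-5. The groups were tight and far apart, and the difference was 2.11 ± 0.20 (adjusted p = 0.000584). GAGE2A had 4.03, 3.09, 2.45 and 1.54 CPM in A375, against 19.4, 26.0, 23.1 and 12.4 CPM in SKMEL-5, and was lower by -2.90 ± 0.22 (adjusted p = 0.000159). GAGE1 and GAGE2A overlap in the annotation, are near-identical copies and were called in opposite directions, so the level of either is uncertain.

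Most cancer-testis genes were not called. Of 36 listed genes 22 were tested, 2 were higher (MAGEA11 and GAGE1), 1 was lower (GAGE2A), and the median was -0.09. MAGEA3 had 75.4, 87.7, 74.6 and 87.6 CPM in A375, against 55.7, 75.8, 107 and 98.8 CPM in SKMEL-5, a difference of -0.01 ± 0.18 (adjusted p = 0.987), and PRAME, a melanoma antigen, differed by -0.22 ± 0.15 (adjusted p = 0.652). Larger differences without a call were 2.93 ± 0.64 for SSX1 (adjusted p = 0.123), 2.38 ± 0.58 for XAGE2 (adjusted p = 0.191) and 1.67 ± 0.35 for MAGEA1 (adjusted p = 0.101), and 13 of the 22 intervals lay within 2-fold. The VCX genes, X-linked relatives expressed in the testis, were higher in A375 by 3.11 ± 0.53 for VCX, 3.70 ± 0.62 for VCX2 and 3.41 ± 0.43 for VCX3B, with no A375 library above 3 CPM. They too are near-identical copies. Other called neighbours were ZNF711 and POF1B on X, which lie 4034 bases apart and were higher by 4.70 ± 0.67 and 6.91 ± 0.99, and the olfactory receptor genes OR51B4 and OR51B5 on chromosome 11, which lie 1498 bases apart and were higher by 1.51 ± 0.26 and 1.40 ± 0.19.

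No gene of the donor and position lists was called. Of 26 HLA and antigen presentation genes, 0 were called, the median was 0.24, and all 26 intervals lay within 2-fold. Of 11 tested genes with common whole-gene deletions or null alleles, 0 were called (median 0.01), and of 38 tested HOX genes, which record body position, 0 were called (median -0.15). HOXA13, with the smallest p of that list, was at 5.86, 4.20, 1.86 and 1.18 CPM in A375, against 7.08, 8.64, 2.84 and 2.04 CPM in SKMEL-5 (difference -0.68 ± 0.24, adjusted p = 0.396). Of 26 tested melanoma driver and suppressor genes 0 were called in the mean, among them BRAF at 0.22 ± 0.18 and NRAS at -0.30 ± 0.16. Of 18 MAPK output and feedback genes 0 were called (median 0.13), with the feedback phosphatase DUSP6 at 0.15 ± 0.18.

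Genes of the oxygen response and of metabolism were likewise without calls in the mean. The counts were 0 of 29 tested hypoxia response genes (median -0.07), 0 of 22 for glycolysis and glucose transport (0.02), 0 of 17 clock genes (0.11), 0 of 20 proliferation genes (0.03) and 0 of 23 interferon response genes (-0.09). Among 30 tested genes of sugar chain synthesis and galectins, the subject of the series' title, 0 were called and the median was -0.08. The I-branching enzyme GCNT2 differed by 0.01 ± 0.24 and the fucosyltransferase gene FUT11 by 0.01 ± 0.20. All 13 mitochondrial genome mRNAs stood below 0, with 0 called and a median of -0.41, and the mitochondrial share of counts given above was lower in A375 in the hypoxia 2 and normoxia 1 pairs and higher in the other 2 pairs. Of 19 tested sterol genes 0 were called, with a median of 0.33.

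The normoxic and the hypoxic pairs were also read apart. In normoxia the paired fit called 163 genes (0.885%), 75 higher (0.407%) and 88 lower (0.478%) in A375. In hypoxia it called 33 genes (0.179%), 25 higher (0.136%) and 8 lower (0.0434%). The hypoxic calls repeated in normoxia: 28 of the 33 (84.8%) had the same direction there, with a median size of 2.77 in hypoxia and 2.51 in normoxia. The normoxic calls repeated less in size, with 121 of 163 (74.2%) in the same direction and a median of 1.43 in normoxia and 0.33 in hypoxia, where 51.2% of all genes had the same direction. There were 19 genes called in both conditions with the same direction, among them MITF, FOXP1, TSSC2 and GAGE2A on the lower side and DLGAP1, SGCZ, VAT1L, MAGEA11, MUC13 and TENM1 on the higher.

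**Figure D5:**
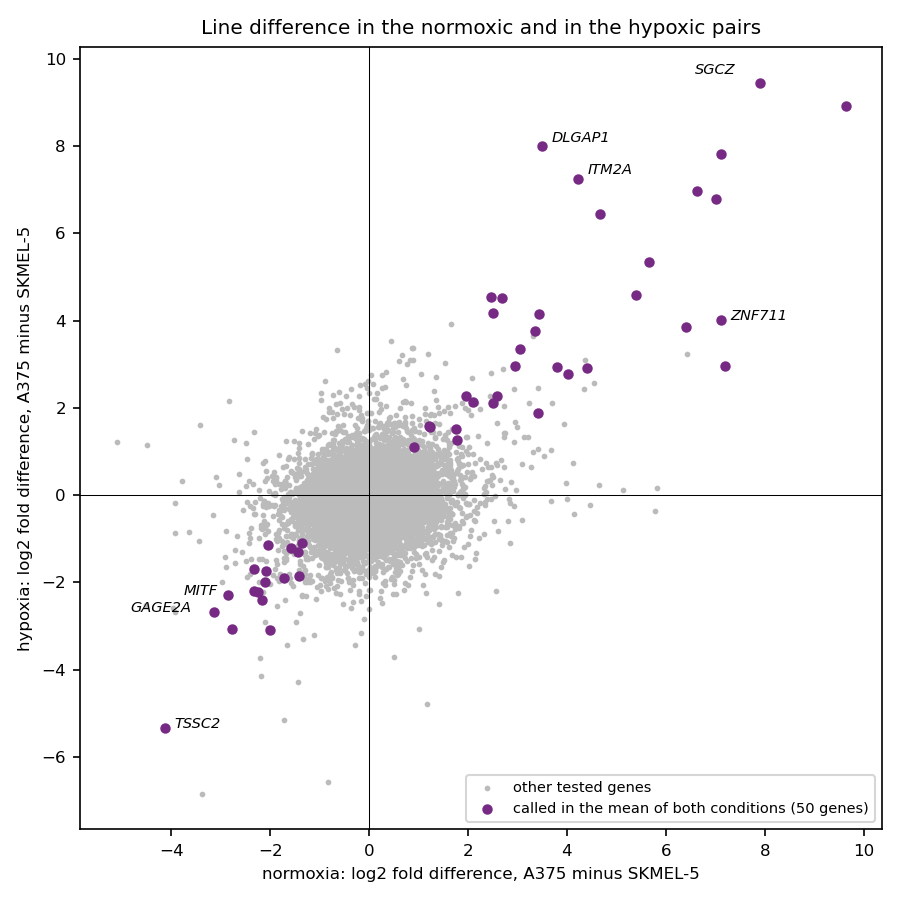
Log2 difference, A375 minus SKMEL-5, in the normoxic pairs (horizontal) and the hypoxic pairs (vertical) for the 18412 genes of the paired fit; purple points are the 50 genes called in the mean of both conditions. The called genes lie to the upper right and lower left of the origin, which follows largely from their call on the same pairs. The cloud of other genes lies around the origin (r = 0.246 across all 18412 genes).

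The number of normoxic calls depended on single pairs, in fits that then had 1 normoxic pair left. Without the normoxia replicate 1 pair 26 genes were called, and 256 without the normoxia replicate 2 pair. The median exonic length was 6015 bases for the 75 higher genes and 2638 bases for the 88 lower, beside 4206 for all tested genes, and the part of transcript length in the calls was not tested. Among nuclear genes for respiratory chain and ATP synthase subunits, 0 were higher and 8 lower of 74 tested in normoxia, with a median of -0.72, and 0 called in hypoxia, with a median of 0.15. Ribosomal proteins were 0 higher and 5 lower of 78 in normoxia, with a median of -0.66, and 0 called in hypoxia, with a median of 0.19.

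Single genes show where the normoxic values lie. NDUFA4, a subunit of the cytochrome oxidase complex, had 77.4 and 39.8 CPM in normoxic A375, against 307 and 108 CPM in normoxic SKMEL-5, and 56.9 and 90.8 CPM in hypoxic A375, against 48.2 and 163 CPM in hypoxic SKMEL-5. SKMEL-5 normoxia 1 was the highest of the 8 libraries for NDUFA4. Among listed genes called in normoxia, DCT, a melanin enzyme, was lower by -2.84 (adjusted p = 0.0343), FAM162A, a hypoxia-inducible mitochondrial protein, by -1.37 (adjusted p = 0.0395) and the sugar-binding galectin LGALS3 by -1.15 (adjusted p = 0.0395). TERT, the telomerase catalytic subunit, was higher by 2.15 (adjusted p = 0.0265), the cytokine gene LIF by 0.95 (adjusted p = 0.0488) and COL6A3, a collagen VI chain, by 2.72 (adjusted p = 0.000315). The calls of these genes other than COL6A3 were lost without the normoxia replicate 1 pair. That fit has 1 normoxic pair left and takes its spread from the hypoxic pairs, so a call in it says little about normoxic spread.

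COL6A3 had 53.7 and 37.4 CPM in normoxic A375, against 6.18 and 7.43 CPM in normoxic SKMEL-5, where the lines did not overlap. In hypoxia it had 6.58 and 79.9 CPM in A375, against 4.15 and 52.4 CPM in SKMEL-5, where replicate 2 was far above replicate 1 in both lines and the difference was 0.64 (adjusted p = 0.508). In the mean COL6A3 stood at 1.68 ± 0.37 and was not called (adjusted p = 0.123), and of 26 tested collagen and matrix genes 0 were called, with a median of 0.24.

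In hypoxia alone, FST, the activin antagonist follistatin, had 309 and 491 CPM in A375, against 43.5 and 116 CPM in SKMEL-5. In normoxia it had 580 and 272 CPM in A375, against 429 and 255 CPM in SKMEL-5. The hypoxic libraries did not overlap and the normoxic ones did; the difference was 2.45 in hypoxia (adjusted p = 0.000675) and 0.26 in normoxia (adjusted p = 0.615), and the interaction was 2.19 (adjusted p = 0.0742). IGFBP5, an insulin-like growth factor binding protein, was lower in hypoxic A375 by -2.47 (adjusted p = 0.0111) and stood at 0.27 in normoxia (adjusted p = 0.776). BCL2A1, an antiapoptotic protein and known MITF target, was higher in hypoxic A375 by 1.91 (adjusted p = 0.0205), and PLXDC2, a plexin-domain membrane protein, was lower by -5.15 (adjusted p = 0.00336). Without the hypoxia replicate 1 pair, which leaves 1 hypoxic pair, the differences were 2.06 for FST, -2.85 for IGFBP5, 1.74 for BCL2A1 and -5.24 for PLXDC2.

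Whether the oxygen response differed between the lines was tested by the interaction, the hypoxia minus normoxia change in A375 minus that in SKMEL-5. The paired fit called 3 genes (0.0163%), 2 with the A375 change above that of SKMEL-5 (0.0109%) and 1 below (0.00543%). RXRG, a retinoid receptor of neural crest-like cells, had 16.6 and 36.8 CPM in hypoxia and 12.1 and 6.44 CPM in normoxia in A375, against 3.62 and 5.60 CPM in hypoxia and 13.0 and 6.32 CPM in normoxia in SKMEL-5. The normoxic libraries of the lines overlapped and the hypoxic ones did not, and the interaction was 2.51 (adjusted p = 0.0481).

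S100A1, a calcium-binding protein of melanocytic and muscle cells, had 145 and 72.4 CPM in hypoxia and 48.4 and 11.0 CPM in normoxia in A375, against 93.7 and 48.1 CPM in hypoxia and 154 and 25.8 CPM in normoxia in SKMEL-5 (interaction 2.07, adjusted p = 0.0481). Replicate 1 was above replicate 2 in each line and condition. ITGB4, the integrin subunit of hemidesmosomes, had 151 and 29.6 CPM in hypoxia and 6.82 and 4.45 CPM in normoxia in A375, against 508 and 58.6 CPM in hypoxia and 1.21 and 2.35 CPM in normoxia in SKMEL-5. It was higher in hypoxia in both lines, with a larger change in SKMEL-5 (interaction -3.04, adjusted p = 0.0481). For each of these 3 genes the adjusted p was 1 in the unpaired fit. Leaving out 1 of the 4 pairs leaves 1 pair in a condition. The paired interaction then ran from -3.86 to -2.35 for ITGB4 and from 1.78 to 2.28 for S100A1. The number of genes called for the interaction ran from 10 to 661 when 1 of the 4 pairs was left out, so it depended on single pairs. In the unpaired fit the ITGB4 interaction was -3.31, and -1.03 without SKMEL-5 hypoxia 1, and that of S100A1 was 2.22, and 0.36 without SKMEL-5 normoxia 1.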

How the data were processed

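The authors deposited raw counts per gene for 12 libraries, with no normalization: 60656 Ensembl IDs, of which 23267 had no counts. Per the submitters' processing notes, bcl2fastq 2.20, Trim Galore 0.6.1, STAR 2.5.0a and GRCh38 were used; the counting tool, strand setting and annotation release: not given in the sources used here. Symbols matched 60445 IDs, and GENCODE 29 placed 58438 on GRCh38.

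edgeR 4.0.16 in R 4.3.3 was run on the counts. The unpaired fit, the planned main one, used all 12 libraries in 6 groups (filterByExpr, minimum count 10, minimum total 15; 19636 genes; TMM; 6 residual degrees of freedom). The paired fit used the 8 libraries with the 4 pairs as a replicate block (18412 genes; 3 residual degrees of freedom for the mean and 2 within a condition). The shared replicate numbers pair the libraries, since deviations from group means correlated above 0.1 in every pair (0.80 and 0.58); with 2 replicates these are 2 independent values, and the labels do not say what the numbers mark. Tests are two-sided quasi-likelihood F tests, with Benjamini-Hochberg adjustment over all tested genes and calls at an adjusted p under 0.05. Standard errors are the log2 difference over the root of F. p-values measure spread between these libraries. The fits were tested on simulated data.

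Named genes were the markers MITF, DLGAP1, TSSC2, TYR, MLANA, PMEL, SOX10 and AXL, unpaired calls, the 10 largest paired calls per direction, list members with calls or smallest p, genes at 0 in 1 line, the interaction's 5 smallest p and relatives of DLGAP1 and ALG1. Some genes picked by this rule are not reported here. Members and 22 lists were chosen with earlier results of these data known. Alternatives were DESeq2 1.42.0 and its size factors, limma 3.58.1 voom, other filters, a minimum change and leaving out libraries or pairs, the last chosen after seeing the data.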

Additional observations from a re-analysis of the deposited data

Results flagged for a closer look

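A line by oxygen interaction, tested in the paired fit, set apart 3 genes whose hypoxia minus normoxia change differed between A375 and SKMEL-5: RXRG (2.51 on the log2 scale), S100A1 (2.07) and ITGB4 (-3.04). Each had an adjusted p of 0.0481 with the pairs as a block and of 1 without it. Groups held 2 libraries each, too few to look for a single outlying library within a group.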

How the results depend on the processing

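Each count of calls depended on the pairing and the tool. For the mean of both conditions the unpaired fit called 2 genes, the replicate block 50, the 8 libraries without pairing 0, DESeq2 33, limma-voom 17 and no low-count filter 58, whereas DESeq2's size factors, a 1 CPM filter and a minimum log2 change of 0.5 gave 2 each. In normoxia these were 0 unpaired, 163 with the block, 12 with DESeq2, 1 with limma-voom and 19 without the filter. In hypoxia they were 0, 33 with the block, 11 with DESeq2 and 38 without the filter, and for the interaction 0, 3 with the block and 2 without the filter. Without 1 library at a time the unpaired counts were 0 to 1 in the mean and 0 in the other tests, and 0 in the mean without both hypoxia replicate 1 libraries. Leaving out 1 pair of the block, in the order hypoxia 1, hypoxia 2, normoxia 1 and normoxia 2, gave 113, 35, 25 and 24 calls in the mean, 1392, 1399, 26 and 256 in normoxia, 53, 876, 165 and 51 in hypoxia, and 142, 661, 10 and 27 for the interaction. In the tests by condition and of the interaction, each of these fits leaves 1 pair in a condition, whose spread is then taken from the other condition. The cause of these moves was not tested.

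Several differences changed sign, most of them small and LCN2 among the larger ones. Without both hypoxia replicate 1 libraries the unpaired mean difference was 0.078 for DCT, -0.23 for FUT11, -0.012 for HLA-DRA and -0.048 for RYBP, and without the low-count filter it was 0.00464 for MAGEA3. In the block without the hypoxia 1 pair it was -0.22 for FUT11, -0.12 for HLA-DRA and -0.074 for RYBP, and without the hypoxia 2 pair -0.021 for FRMD4B, -0.054 for GCNT2 and -0.037 for HLA-DRA. Without the normoxia 1 pair it was 0.31 for DCT, -0.21 for GCNT2, -0.74 for ITGB4, 0.15 for MAGEA3, -0.026 for PAX3 and 0.022 for S100A1, and without the normoxia 2 pair 0.069 for DCT, 0.054 for ERAP2, -0.32 for ITGB4 and 0.043 for MAGEA3. Without 1 library at a time, the unpaired mean difference ran from -0.44 to 0.67 for ALG1, -0.34 to 0.72 for BRAF, -1.32 to 0.16 for DCT, -0.39 to 0.30 for DLGAP4, -0.035 to 0.31 for DUSP6, -0.28 to 0.10 for ERAP2, -0.42 to 0.49 for FRMD4B and -0.22 to 0.21 for FUT11. It ran from -0.17 to 0.18 for GCNT2, -0.24 to 0.44 for GPNMB, -0.0495 to 0.13 for HLA-DRA, -0.83 to 1.17 for ITGB4, -0.25 to 3.71 for LCN2 (lowest without A375 normoxia 1), -0.10 to 0.11 for MAGEA3, -0.48 to 1.28 for NGFR and -0.14 to 0.26 for PAX3. For PMEL it ran from -0.049 to 0.90, for RYBP -0.20 to 0.46, for S100A1 -1.21 to 0.41 and for SAMMSON -1.42 to 0.30. The cause was not tested.

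Each group held 2 libraries. In the mean of both conditions the median standard error was 0.42 on the log2 scale without the block and 0.22 with it, and intervals lay within 2-fold of no difference for 38.4% of genes without the block. For genes under 1 CPM the counts given beside them set the precision.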
